A study of Mus musculus with 6 samples.

Results

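The genes described here are 10 components of bone morphogenetic protein (BMP) and transforming growth factor beta (TGF-β) signalling in endothelial cells: the receptors Acvrl1, Bmpr2, Tgfbr1 and Tgfbr2, the ligand Bmp4, the target genes Id1, Id2 and Id3, and the inhibitory Smads Smad6 and Smad7. They were taken by symbol from an expression table of 54532 genes, and all 10 were found and passed the filter on low values that left 12618 genes for testing. The cells were primary brain microvascular endothelial cells from wild-type C57BL/6J mice, seeded as vessel fragments, held in puromycin for the first days and then grown to confluence. One group of 3 libraries came from untreated cells. The other group of 3 came from cells given DEVD mIL-36β, a mouse form of the IL-1 family cytokine IL-36β, at 100 ng/ml for 24 h. The age of the mice, the number of animals behind each library and the culture time of the untreated cells are not stated in the labels, so the cytokine and time in culture cannot be told apart.

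In this pathway a dimeric ligand joins type I and type II receptors at the cell surface, and the type I receptor then phosphorylates receptor Smads, which enter the nucleus with Smad4. BMP signals pass mainly through Smad1, Smad5 and Smad9 and switch on the Id genes, and TGF-β signals pass through Smad2 and Smad3. Endothelial cells are known for carrying both branches: ALK1, the product of Acvrl1, works with the co-receptor endoglin in sensing circulating BMPs, and inherited defects of these genes cause malformed, bleeding vessels. Smad6 and Smad7 are themselves induced by the pathway and hold it back.

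Libraries held 15180389 to 19544689 reads assigned to genes. Values are FPKM, reads per kilobase of gene length scaled per library in proportion to the authors' size factor, so levels can be compared between genes. All 12 endothelial markers examined, among them Cdh5 and Pecam1, were at 1 FPKM or more in every library, and all 8 microglia and macrophage markers and all 6 oligodendrocyte markers were under 0.5 FPKM in every library. The summed level of 7 fibroblast markers was 0.724 to 1.54 FPKM untreated and 0.929 to 3.56 FPKM after IL-36β, with Col1a1 and Col1a2 above 1 FPKM in IL-36β replicate 3, and that of 6 astrocyte markers was 0.432 to 1.55 and 0.560 to 1.76 FPKM, mostly Aldh1l1. The sum of 5 neuron markers was 6.80 to 13.7 FPKM untreated and 6.90 to 24.3 FPKM after IL-36β, mostly Tubb3. Among 10 markers of pericytes and smooth muscle, Rgs5, Kcnj8 and Abcc9 stayed under 0.5 FPKM, but Acta2, the smooth muscle actin gene, was at 340 to 1323 FPKM. The summed level of these 10 markers was 415 to 1376 FPKM in untreated and 369 to 804 FPKM in IL-36β libraries. Without Acta2, a sum taken after its values were seen, it was 37.3 to 58.2 FPKM in untreated and 20.3 to 32.7 FPKM in IL-36β libraries. Cnn1 and Myh11 made up most of that sum, at means of 34.0 and 8.07 FPKM untreated and 16.9 and 3.52 FPKM after IL-36β. Pdgfrb was at 2.63 and 2.54 FPKM and Des at 1.51 and 1.94 FPKM. Rgs5, Kcnj8 and Abcc9 did not pass the filter on low values and were not tested, and none of the other markers of this list passed in limma. The part of such cells in the results below was not tested, and in bulk RNA fewer cells of a type cannot be told apart from less RNA per cell. The library names carry letters, and libraries lettered D and E (untreated replicate 3, IL-36β replicates 2 and 3) differed from those lettered A and B in 220 genes, 1.74% of those tested, in a limma model with both factors. Values within these 2 library sets are therefore given where they bear on a result. The sets were known from earlier results of these data, so the count of 220 may be too high.

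None of the 10 genes passed the threshold between IL-36β and untreated cells (limma, Benjamini-Hochberg adjusted p under 0.05 over all 12618 genes), against a background of 0.182% of all genes (0.166% higher and 0.0159% lower). At an unadjusted p under 0.05 there were 3 of the 10, Id3 higher and Bmpr2 and Smad7 lower, where 10.4% of all genes stood. In those same 3 genes the libraries of the groups did not overlap, against 16.2% of all genes tested. Fitted fold changes were above 1 in 5 genes and below 1 in 5, and the median log2 fold change was -0.09, beside 0.00 over all genes. Count-based tests on reads recovered from the FPKM called 0 of the 10 with edgeR, where 0.293% of all genes passed (0.262% higher and 0.0317% lower), and 1, Smad7, with DESeq2, where 2.1% passed. With the library set as a term 0 of the 10 passed in limma (0.808% of all genes, 0.674% higher and 0.135% lower), in edgeR (1.9%, 1.27% higher and 0.634% lower) and in DESeq2 (3.59%, 2.14% higher and 1.44% lower). Whether replicates stem from different animals or dishes is not stated in the labels, and the p-values cover the spread among these 6 libraries, which may be technical.

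**Figure D1:**
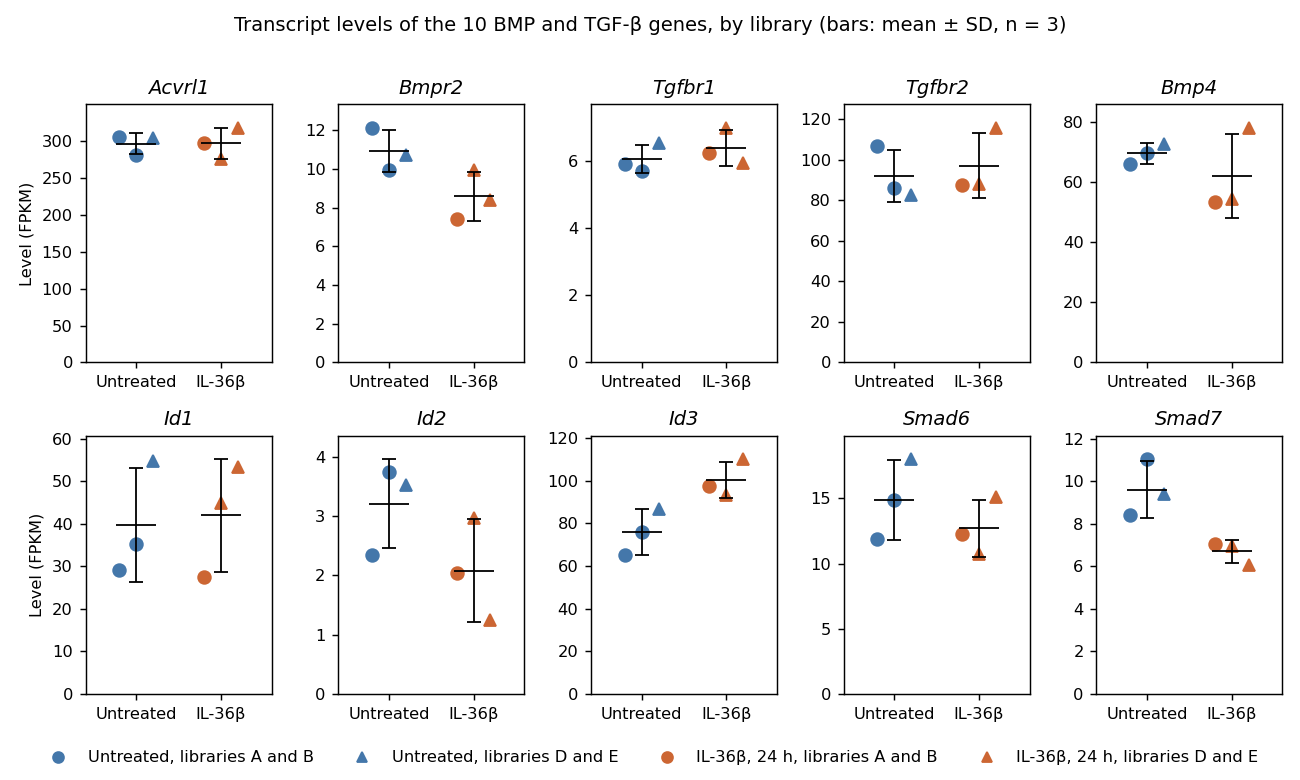
Each panel plots 1 gene, with the level in FPKM on a linear axis from 0, untreated libraries in blue and IL-36β libraries in orange; circles are libraries A and B, triangles are libraries D and E, and black bars are the mean ± SD of 3 libraries. Id3 lies higher and Smad7 lower in every IL-36β library than in any untreated one, while Id1 divides by symbol shape and not by colour.

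Among the receptors, Acvrl1 encodes the type I receptor ALK1 (chromosome 15, 101128522 to 101145336, plus strand, GRCm38). Its level was 305, 280.4 and 304 FPKM in untreated replicates 1 to 3, and the IL-36β replicates had 298, 276 and 317 FPKM. The groups lay on top of each other, at 296 ± 13.9 and 297 ± 20.9 FPKM (SD, n = 3 per group). The fold was 1.00 with a 95% confidence interval of 0.84 to 1.19. Acvrl1 ranked 106th of 12618 genes by mean FPKM and was the most abundant of the 10 genes in every library.

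Tgfbr2 encodes the type II receptor that binds TGF-β (chromosome 9, 116084293 to 116175360, minus strand). It was at 107, 86.3 and 82.7 FPKM untreated against 87.4, 88.2 and 116 FPKM after IL-36β, and the highest library of each group stood well apart from the other two. The groups overlapped, with a fold of 1.05 (95% confidence interval 0.82 to 1.35), and the sign was not shared by the library sets, at 0.91-fold within A and B and 1.22-fold within D and E.

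Its partner Tgfbr1, the type I receptor ALK5 (chromosome 4, 47353222 to 47414931, plus strand), was far lower. Tgfbr1 was at 5.91, 5.70 and 6.53 FPKM untreated against 6.22, 6.97 and 5.94 FPKM after IL-36β, with a fold of 1.05 (0.89 to 1.24). In FPKM, Acvrl1 exceeded Tgfbr1 by 39.5 to 53.4 times and Tgfbr2 exceeded Tgfbr1 by 12.7 to 19.5 times across the 6 libraries.

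Bmpr2 encodes the type II BMP receptor (chromosome 1, 59763400 to 59879014, plus strand). It stood at 12.1, 9.95 and 10.7 FPKM untreated against 7.41, 9.92 and 8.41 FPKM after IL-36β, from 2067 to 3623 reads per library. The groups did not overlap, but only by the small distance between 9.95 and 9.92 FPKM. The fold was 0.79 (0.64 to 0.98) and missed the threshold (limma adjusted p = 0.447), with 0.69-fold within A and B and 0.86-fold within D and E. Over the alternative analyses the adjusted p of Bmpr2 ranged from 0.0937 to 0.839.

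Bmp4, the ligand of the set (chromosome 14, 46383520 to 46390669, minus strand), is a BMP that endothelial cells secrete. It was at 65.9, 69.8 and 72.8 FPKM untreated against 53.4, 54.4 and 78.0 FPKM after IL-36β. The first pair of IL-36β libraries lay under every untreated library and the third above all of them, so the SD was 13.9 FPKM with IL-36β and 3.44 FPKM without. The fold was 0.88 (0.68 to 1.13; limma adjusted p = 0.695).

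The target genes Id1, Id2 and Id3 encode helix-loop-helix proteins that lack a DNA-binding region and block other factors of that class. They are among the most direct readouts of BMP signalling, and Smad6 is another. RefSeq promoter windows (GRCm38.p6, 250 bases before to 50 after the start site) were examined for 7 of the 10 genes, 8 windows in all. No windows of Acvrl1, Id1 and Smad7 were examined, so the motif content of their promoters was not tested. The windows of the targets Smad6, Id2 and Id3 are shown because these genes are all known targets and their windows differed in motif content. They lie at chr9:64022010-64022309 (minus strand), chr12:25096043-25096342 (minus strand) and chr4:136143572-136143871 (plus strand). Capitals mark GTCTAGAC, the palindrome first described for Smad3 and Smad4 binding, and GGCGCC, a GC-rich element known from BMP-responsive promoters.
Smad6: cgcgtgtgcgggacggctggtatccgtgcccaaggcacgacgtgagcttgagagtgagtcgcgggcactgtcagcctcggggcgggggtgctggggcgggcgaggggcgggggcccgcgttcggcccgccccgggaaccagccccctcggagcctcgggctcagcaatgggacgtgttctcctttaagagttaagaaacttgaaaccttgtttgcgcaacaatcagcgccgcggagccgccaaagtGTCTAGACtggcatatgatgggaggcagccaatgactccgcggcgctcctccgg
Id2: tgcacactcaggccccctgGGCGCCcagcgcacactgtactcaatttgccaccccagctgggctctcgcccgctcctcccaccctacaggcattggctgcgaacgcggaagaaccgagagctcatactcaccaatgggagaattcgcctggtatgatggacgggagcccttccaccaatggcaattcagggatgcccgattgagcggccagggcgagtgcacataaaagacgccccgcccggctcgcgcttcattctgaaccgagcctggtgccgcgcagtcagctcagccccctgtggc
Id3: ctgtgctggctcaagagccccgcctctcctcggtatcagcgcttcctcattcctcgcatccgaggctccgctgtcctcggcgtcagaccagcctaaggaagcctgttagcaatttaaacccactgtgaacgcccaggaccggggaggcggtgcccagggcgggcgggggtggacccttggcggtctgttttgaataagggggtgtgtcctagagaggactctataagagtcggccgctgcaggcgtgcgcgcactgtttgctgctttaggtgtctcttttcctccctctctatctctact
The Smad6 window held GTCTAGAC across its start site, beginning 4 bases upstream, and 0.213% of 32851 promoter windows of this length held that motif. GGCGCC occurred in the windows of Id2, beginning 231 bases upstream, of Bmpr2, 105 bases upstream, and of Tgfbr1, 233 bases upstream, where 11.9% of all windows held it. These windows of Id2, Bmpr2 and Tgfbr1 were 63.3%, 59.3% and 74.7% GC, beside a median of 52.7% over all windows, and GGCGCC is made of G and C only. Neither motif was found in the Id3 window, and the consensus of NF-κB, the factor family downstream of IL-1 family receptors, was found in no window of the 7 genes and in 8.46% of all windows. Both strands were searched, the 2 spelled-out motifs read the same on either strand, and no matches overlapped. The RefSeq start site of Smad6 was that of the deposited gene model. Those of Id3, Bmpr2 and Id2 lay 325, 879 and 1048 bases inside their gene models. These matches describe the letters of the windows and not binding.

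Id3 (chromosome 4, 136143497 to 136145755, plus strand) was the member with the largest difference upwards. Its level was 65.0, 76.0 and 86.6 FPKM in untreated replicates 1 to 3, and the IL-36β replicates had 97.7, 93.4 and 109.9 FPKM, from 1890 to 3581 reads per library. Every IL-36β library was above every untreated library, and 8.95% of all genes showed that pattern in that direction. Group means were 75.9 ± 10.8 and 100.3 ± 8.58 FPKM (SD, n = 3 per group). The fold was 1.33 (95% confidence interval 1.08 to 1.63; limma adjusted p = 0.360), with 1.39-fold within A and B and 1.17-fold within D and E. Id3 was above its untreated level in each alternative analysis, by 0.29 to 0.51 on the log2 scale, and passed in none, with adjusted p between 0.157 and 0.851.

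Id1 (chromosome 2, 152736251 to 152737410, plus strand) divided by library set and not by treatment. It was at 29.1, 35.3 and 54.9 FPKM untreated against 27.6, 45.0 and 53.4 FPKM after IL-36β. The 3 libraries lettered A and B lay at 27.6 to 35.3 FPKM and the 3 lettered D and E at 45.0 to 54.9 FPKM. In the model with both factors Id1 was 1.73-fold higher in D and E (95% confidence interval 1.43 to 2.10; limma adjusted p = 0.0278), the only one of the 10 genes to pass for the library set, where 0.507% of all genes passed in that direction. Of the neuron markers, Tubb3 was also higher in D and E, at 13.4 to 24.1 FPKM against 5.15 to 6.42 FPKM in A and B. Map2 went the other way, at 0.0370 to 0.150 FPKM in D and E against 0.333 to 1.69 FPKM in A and B. Rbfox3, Snap25 and Syt1 stayed under 0.5 FPKM in every library. The sum of the 5 markers, mostly Tubb3, was 13.7 to 24.3 FPKM in D and E and 6.80 to 6.91 FPKM in A and B. The part of these genes in the result was not tested. The sets were known from earlier results of these data, so the p of Id1 for the set may be too small. Between treatments the pooled fold was 1.05 (0.65 to 1.70), and with the set as a term it turned to 0.88 (0.72 to 1.06; limma adjusted p = 0.519), with 0.86-fold within A and B and 0.89-fold within D and E.

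Id1 and Id3 therefore differed in which libraries were high, although both are BMP targets. Untreated replicate 3 was the highest library for Id1, at 54.9 FPKM, and IL-36β replicate 1 was the lowest, at 27.6 FPKM. For Id3, IL-36β replicate 1 was the second highest library. The ratio of Id3 to Id1 in FPKM was 2.23, 2.15 and 1.58 in untreated and 3.55, 2.07 and 2.06 in IL-36β libraries, so the groups overlapped in it.

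**Figure D2:**
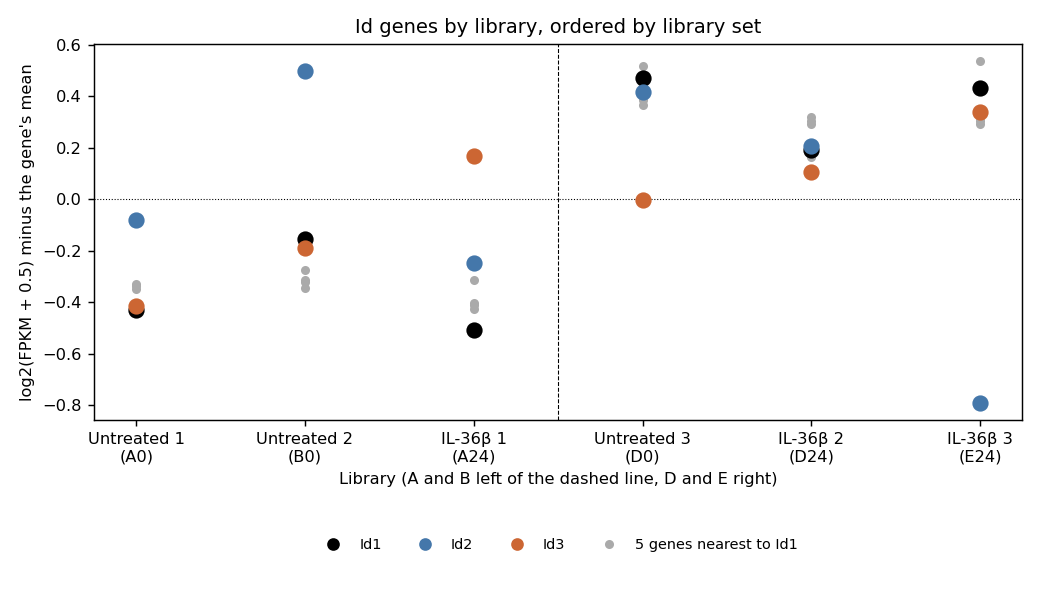
The x axis orders the 6 libraries by library set, A and B left of the dashed line and D and E right of it, and the y axis gives log2(FPKM + 0.5) minus the gene's mean over the libraries. Id1 (black) is below 0 in all A and B libraries and above 0 in all D and E libraries, with the 5 nearest genes (grey) beside it, while Id2 (blue) and Id3 (orange) follow other orders.

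The 5 genes nearest to Id1 over the 6 libraries were Elovl6, Tnk2, Shisa4, Adcy4 and Mob1a, taken from 10246 genes. The measure of likeness was the root mean square difference of log2(FPKM + 0.5) after each gene's mean was subtracted. It was 0.08 for Elovl6 and 0.11 for Mob1a, against a median of 0.41 over the 10246 genes. Among the other members it was smallest for Smad6, at 0.32, and 0.34 for Id3 and 0.59 for Id2. The levels of the 5 nearest genes were 1.62- to 1.76-fold higher in D and E, which follows from choosing them for likeness to Id1 over the same libraries.

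Id2 (chromosome 12, 25093799 to 25097140, minus strand) was the least abundant of the 10 genes in every library. It was at 2.35, 3.75 and 3.52 FPKM untreated against 2.04, 2.97 and 1.24 FPKM after IL-36β, from 55 to 185 reads. The groups overlapped, since IL-36β replicate 2 exceeded untreated replicate 1. The fold was 0.68 (0.44 to 1.05; limma adjusted p = 0.534), the lowest fold of the 10, with 0.73-fold within A and B and 0.61-fold within D and E.

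Of the inhibitory Smads, Smad7 blocks the receptors of both branches and Smad6 acts mainly on the BMP branch. Smad7 (chromosome 18, 75367529 to 75395935, plus strand) was at 8.42, 11.0 and 9.39 FPKM untreated against 7.07, 6.98 and 6.07 FPKM after IL-36β, from 496 to 1011 reads. Every IL-36β library was below every untreated library, as in 7.24% of all genes. Group means were 9.62 ± 1.33 and 6.71 ± 0.554 FPKM (SD, n = 3 per group), with a fold of 0.71 (0.58 to 0.87), the smallest unadjusted limma p of the 10 genes and an adjusted p of 0.254. Smad7 was 0.75-fold within A and B and 0.71-fold within D and E, the closest accord between the sets among the 3 genes whose groups did not overlap.

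The tools differed on Smad7. DESeq2 on recovered reads called it lower (log2 fold change -0.53; DESeq2 adjusted p = 0.0488), where 0.808% of all genes were called lower and 1.29% higher. It missed the threshold in edgeR (adjusted p = 0.186) and in DESeq2 once the set was added (adjusted p = 0.0590). Over all alternatives its difference was below 0, from -0.59 to -0.32 on the log2 scale, and its adjusted p ranged from 0.0488 to 0.738.

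Smad6 (chromosome 9, 63953076 to 64022059, minus strand) was at 11.9, 14.8 and 18.0 FPKM untreated against 12.3, 10.7 and 15.1 FPKM after IL-36β. The groups overlapped, and the fold was 0.86 (0.65 to 1.15; limma adjusted p = 0.693). Smad6 was 0.93-fold within A and B and 0.72-fold within D and E.

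**Figure D3:**
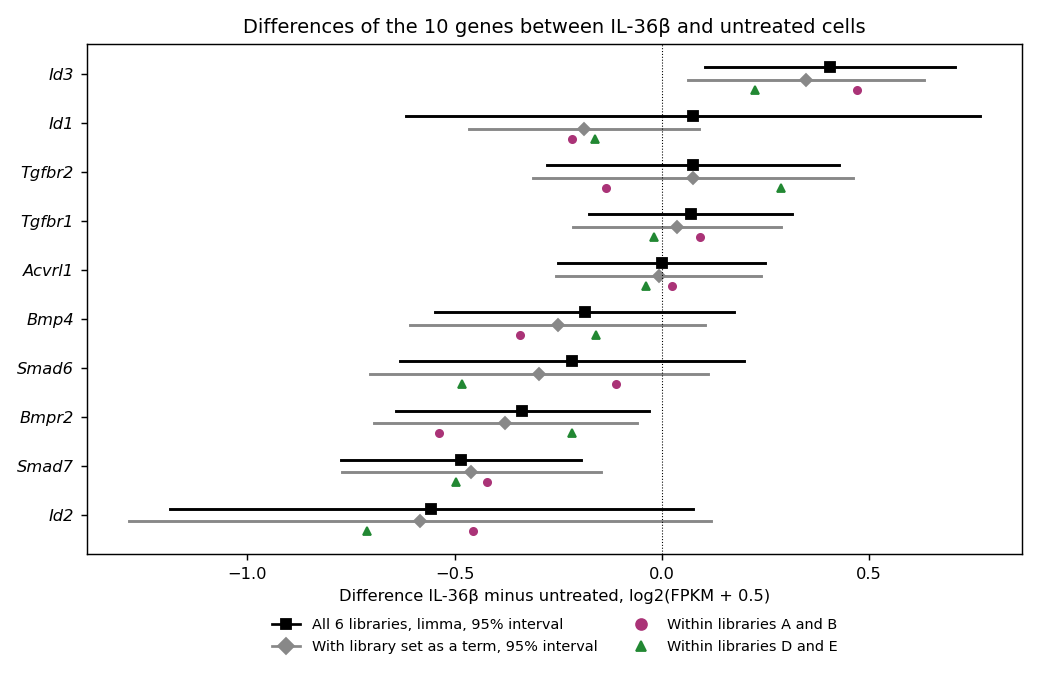
Differences between IL-36β and untreated cells on the log2(FPKM + 0.5) scale are plotted for the 10 genes, with 95% intervals from limma on all 6 libraries (black) and with the library set as a term (grey), and the values within each set as coloured points. The intervals of Id3, Bmpr2 and Smad7 exclude 0 in both fits, before adjustment over all genes, and the interval of Id1 narrows from 0.65- to 1.70-fold to 0.72- to 1.06-fold when the set is a term.

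The order of levels in untreated cells ran from Acvrl1 through Tgfbr2, Id3, Bmp4, Id1, Smad6, Bmpr2, Smad7 and Tgfbr1 to Id2. Neighbours whose libraries overlapped there were Tgfbr2 with Id3, Id3 with Bmp4, Smad6 with Bmpr2 and Bmpr2 with Smad7. In IL-36β cells Id3 stood in second place ahead of Tgfbr2, with overlapping libraries, and the rest of the order was the same. The 95% confidence intervals of 9 of the 10 genes lay inside 0.5- to 2-fold, Id2 being the exception, so for those 9 a change of 2-fold or more in either direction lay outside the interval.

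Further genes of the pathway were read from the same fit in 7 lists with 77 genes, of which 61 were measured. None passed the threshold in limma or in edgeR; 11 had an unadjusted p under 0.05, 5 higher and 6 lower, beside 10.4% of all genes, and DESeq2 called 3, beside 2.1% of all genes. Groups did not overlap in 14 of the 61, or 23.0%, beside 16.2% of all genes. Differences were below 0 in 35 of the 61, beside 49.5% of all genes, and the median log2 fold change was -0.09.

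Of 8 measured ligands, none passed in limma. Tgfb1, the TGF-β form most tied to endothelium and immune cells, was at 30.6, 26.7 and 22.3 FPKM untreated against 46.4, 34.1 and 49.6 FPKM after IL-36β. The groups did not overlap, and the fold was 1.62 (1.22 to 2.14; limma adjusted p = 0.231), with 1.62-fold within A and B and 1.83-fold within D and E. DESeq2 called Tgfb1 higher without and with the library set as a term (adjusted p = 0.00704 and 3.2e-05), and edgeR did so with the set (adjusted p = 0.0219), a setting in which 1.27% of all genes were called higher.

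Tgfb3, the isoform best known from palate and epithelial development, was at 3.60, 5.62 and 7.21 FPKM untreated against 2.76, 3.99 and 3.20 FPKM after IL-36β. Its groups overlapped, with a fold of 0.65 (0.45 to 0.96; limma adjusted p = 0.446), and DESeq2 called it lower with the set as a term (adjusted p = 0.00489). Gdf15, a stress-induced member of the family, was at 140.5 ± 30.3 and 106.7 ± 25.9 FPKM, a fold of 0.75 (0.53 to 1.09), and was called lower with the set as a term by edgeR (adjusted p = 0.0197) and DESeq2 (adjusted p = 8.8e-05). Bmp2, a BMP close in sequence to Bmp4, was at 48.3 ± 9.22 and 64.7 ± 17.8 FPKM, a fold of 1.32 (0.94 to 1.86). Gdf2 and Bmp10, the circulating ligands of ALK1, had 0 reads in all 6 libraries, which allows up to 3 reads in each.

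The receptor and co-receptor list had 6 measured genes, none past the threshold in any of the 6 models run on all libraries with or without the set. Eng, which encodes endoglin, was at 576 ± 56.4 FPKM untreated against 546 ± 68.6 FPKM after IL-36β, a fold of 0.95 (0.75 to 1.19), and was more abundant than Acvrl1 in every library. Bmpr1a, another type I BMP receptor, was at 1.27, 2.12 and 1.52 FPKM untreated against 1.25, 0.881 and 0.684 FPKM after IL-36β. The Bmpr1a groups did not overlap, with untreated replicate 1 barely above IL-36β replicate 1, and the fold was 0.67 (0.48 to 0.95; limma adjusted p = 0.434). Acvr1, the type I receptor ALK2, was at 18.5 ± 0.148 and 16.7 ± 1.36 FPKM, a fold of 0.90 (0.78 to 1.05).

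Of the 6 receptor and common Smads, none passed in limma. Smad1, a transducer of the BMP branch, was at 20.6 ± 2.74 and 25.2 ± 3.63 FPKM, a fold of 1.22 (0.97 to 1.52). Smad4, the common partner of both branches, was at 33.4 ± 2.95 and 30.7 ± 1.15 FPKM, a fold of 0.92 (0.79 to 1.07). Smad9 was at 0.459, 0.598 and 1.50 FPKM untreated against 0.312, 0.533 and 0.225 FPKM after IL-36β, where untreated replicate 3 alone was above 1 FPKM. Smad9 was called lower only by DESeq2 with the set as a term (adjusted p = 0.0366).

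Secreted and matrix modulators had 12 measured genes. Thbs1, which encodes thrombospondin-1, an activator of latent TGF-β, was at 1463, 1444 and 1391 FPKM untreated against 933, 1072 and 1095 FPKM after IL-36β. The groups did not overlap and the untreated libraries were tightly placed, at 1433 ± 37.0 against 1033 ± 88.0 FPKM. The fold was 0.72 (0.58 to 0.90; limma adjusted p = 0.302), and DESeq2 called Thbs1 lower without and with the library set (adjusted p = 0.00272 and 4.55e-04).

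Htra1, a secreted protease, followed the library sets as Id1 did, at 57.4 to 70.5 FPKM in A and B and 132 to 140 FPKM in D and E, 2.24-fold higher in the latter (limma adjusted p = 0.00578). Inhba, from the ligand list, went the other way, at 15.5 to 23.9 FPKM in A and B and 5.58 to 6.16 FPKM in D and E. Its level in D and E was 0.32-fold that in A and B (limma adjusted p = 0.00674). As for Id1, the sets were known from earlier results of these data, so both p-values may be too small.

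Among 11 measured intracellular regulators the groups of 5 did not overlap, where 16.2% of all genes showed no overlap. Fkbp1a, whose product FKBP12 binds type I receptors and keeps them silent, was at 338, 315 and 327 FPKM untreated against 392, 423 and 449 FPKM after IL-36β, a fold of 1.29 (1.08 to 1.53; limma adjusted p = 0.316). Smurf2, a ubiquitin ligase for receptors and Smads, was at 48.2, 45.7 and 47.2 FPKM untreated against 37.0, 41.8 and 36.2 FPKM after IL-36β, a fold of 0.82 (0.70 to 0.95; limma adjusted p = 0.348). Pmepa1, a TGF-β-induced feedback gene, was at 41.5 ± 8.72 and 46.5 ± 7.65 FPKM, a fold of 1.12 (0.84 to 1.50).

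Of further BMP targets 4 were measured and none passed in any of the 6 models. Atoh8, a transcription factor gene downstream of ALK1, was at 1.38, 3.56 and 5.14 FPKM untreated against 1.57, 2.06 and 2.08 FPKM after IL-36β, so that 2 untreated libraries were above and 1 below all IL-36β libraries. Hes1 was at 17.9 ± 1.00 and 18.7 ± 6.00 FPKM, a fold of 1.01 (0.73 to 1.40), and Hey2 was under 1 FPKM in every library; both encode repressors better known from Notch signalling.

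Of the TGF-β targets 14 were measured and none passed in any of the 6 models, with 7 differences above 0 and 7 below. Fn1, which encodes fibronectin and was among the most abundant of them, was at 1974 ± 295 and 1739 ± 327 FPKM, a fold of 0.88 (0.63 to 1.22). Klf10, an early TGF-β response gene, was at 9.36, 8.80 and 10.1 FPKM untreated against 10.1, 12.0 and 15.0 FPKM after IL-36β, a fold of 1.29 (1.02 to 1.63; limma adjusted p = 0.454). Zeb2, a repressor tied to loss of cell junctions in other cell types, was at 3.49, 3.61 and 3.56 FPKM untreated against 2.79, 3.00 and 2.60 FPKM after IL-36β, a fold of 0.81 (0.69 to 0.96; limma adjusted p = 0.401). This list also holds Acta2 and Col1a1, which serve as markers of other cell types here.

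**Figure D4:**
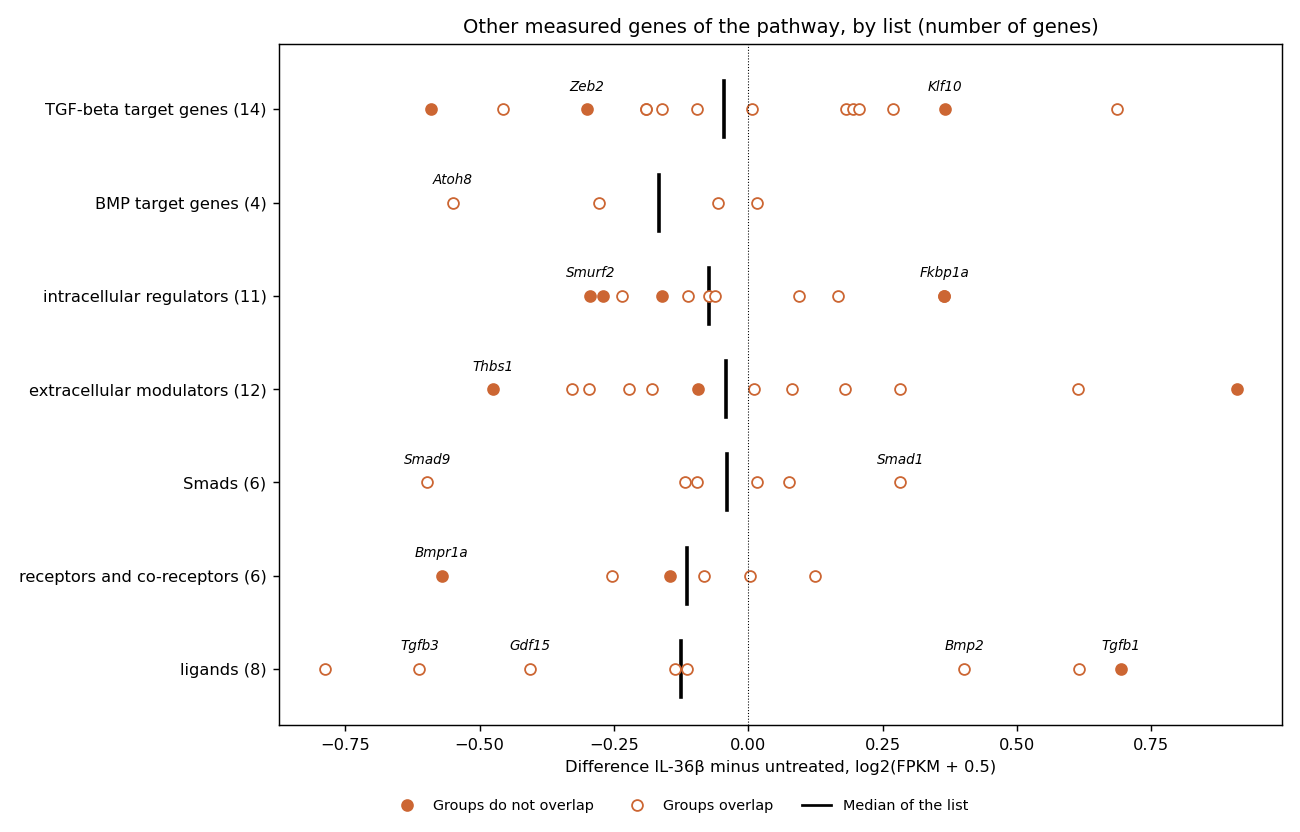
Each point is 1 of the 61 further measured genes, placed by its difference between IL-36β and untreated cells on the log2(FPKM + 0.5) scale and by its list, filled where the 3 libraries of each group do not overlap, with a black line at the list's median. Filled points lie on both sides of 0, with Tgfb1 among those on the right and Bmpr1a and Thbs1 among those on the left, and each list's median is between -0.17 and -0.04.

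The authors' deposited table holds only 660 of the 54532 genes, with unadjusted p-values up to 0.04995 in the authors' own comparison. None of the 10 genes and 3 of the further pathway genes are in it. The p-values there stop just under 0.05, so the 10 genes, Smad7 included, may be absent because theirs were larger. Whether such a cut-off was used is not known here, so their absence says little beyond that. In the authors' deposited table Thbs1 had a log2 fold change of -0.43 and Junb of 0.65, with unadjusted p-values of 0.0372 and 0.0454. The adjusted p-value there was 0.999 for every gene. Junb, named for being in the authors' deposited table, was at 63.5, 58.2 and 39.8 FPKM untreated against 70.8, 51.1 and 71.8 FPKM after IL-36β, and these groups overlapped. From these 6 libraries its log2 fold change was 0.27 (95% confidence interval -0.21 to 0.75; limma adjusted p = 0.670), smaller than in the authors' deposited table. In 410 of 638 genes with reads in both groups, the log2 fold change of the authors' deposited table differed by more than 0.1 from the log2 ratio of its own normalized counts in these 6 libraries, which was 0.26 for Junb and -0.47 for Thbs1. That table also holds columns of 4 libraries that match no sample and were not analysed here, so its fold changes may not describe these 6 libraries.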

How the data were processed

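Libraries were made with a stranded Illumina mRNA kit, per the labels' protocols. Per the submitters' processing notes the tools were fastp, HISAT2 2.05, StringTie, featureCounts 1.50-p3 and DESeq2 1.38.3 with build GRCm38, without roles; no source used here gives the strand setting. The authors deposited FPKM for all genes, and for 660 genes also raw counts, normalized counts (a signal, the count over a size factor), log2 fold changes and p-values. FPKM times gene length, over 1 divisor per library, was within 0.01 of a whole number in 100% of values and equalled the deposited count in all 660 genes; the divisor is proportional to the authors' size factor. These recovered reads served edgeR 4.0.16 and DESeq2 1.42.0. Per-library columns that match no sample (8) were not used.

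Groups were compared with limma 3.58.1 (in R 4.3.3, trended prior, two-sided, Benjamini-Hochberg) on log2(FPKM + 0.5) for genes with at least 0.5 FPKM in at least 3 libraries. Folds are on that scale and understate changes of low genes. On simulated data for this comparison (12399 to 12431 genes tested per run) it called 58.0% of 2-fold, 89.9% of 4-fold and 0.0802% of unchanged genes. The 10 genes, the lists, the library sets and the tests were chosen with earlier results of these data known. Named were the 10 genes and the 5 genes nearest to Id1. Also named, per list, were any gene past the threshold, the 2 most abundant and the 2 with the smallest p. Acta2, Junb, Inhba, Gdf2, Bmp10 and the markers were added. Of 87 symbols 2 matched by an older name. Replicates of a group differed beyond counting noise (chi-square over its degrees of freedom at least 11.0). Overlapping antisense genes of Acvrl1 and Bmp4 had at most 66 reads. Alternatives were other pseudocounts, filters, scalings, blocks, the library set as a term, count tests and leaving out each library; edgeR and DESeq2 with the set were added after the data were seen. Some named genes are not reported here.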

Additional observations from a re-analysis of the deposited data

How the results depend on the processing

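The number of the 10 genes past the threshold was 0 in every alternative except DESeq2 on recovered reads, which gave 1. For further pathway genes it was 0 except 3 with DESeq2, 2 with edgeR and the library set as a term and 6 with DESeq2 and the set. Over all genes the 23 calls became 0 without a filter on low values (limma; 1751 at an unadjusted p under 0.05), 13 with FPKM of at least 1 in all libraries, 15 with TPM, 102 with the set, 37 with edgeR, 260 with DESeq2, 240 with edgeR and the set, 435 with DESeq2 and the set, and 2 to 8 when each library was left out. With a replicate block by title number it was 13, and with a block by library letter 78. Whether title numbers pair the libraries is not stated in the labels. Deviations of same-numbered libraries from their group means correlated at 0.21, -0.14 and 0.21, and IL-36β replicate 1 correlated best with untreated replicate 2. Pairs within a library set were at 0.21 to 0.39 and pairs across the sets at -0.46 to -0.014. The correlations thus follow the sets and cannot settle the pairing.

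Differences kept their sign in 6 of the 10 genes under all alternatives. The sign turned, on the log2 scale, for Acvrl1 (main value 0.00) under quantile normalization (-0.16), TPM (-0.084), the letter block (-0.088), the set (-0.0069), edgeR and DESeq2 (-0.0040 and -0.0070), and these with the set (-0.0097 and -0.012). It turned for Tgfbr1 with TPM (-0.0087), for Tgfbr2 under quantile normalization (-0.061), TPM (-0.0087) and the letter block (-0.10), and for Id1 with TPM (-0.0080), the letter block (-0.18), the set (-0.19), and edgeR and DESeq2 with the set (-0.19 and -0.20). Leaving out each library gave -0.049 to 0.053 for Acvrl1, -0.057 to 0.19 for Tgfbr2 and -0.12 to 0.35 for Id1. Of 23 further named genes 4 turned: Htra1 with the letter block (-0.19), the set (-0.11), and edgeR and DESeq2 with it (-0.11); Hes1 under quantile normalization (-0.017), TPM (-0.069), the letter block (-0.27) and the set (-0.021), and -0.23 to 0.19 leaving out each library; Hey2 with the letter block (0.034); and Eng, from -0.17 to 0.011 leaving out each library. The causes were not tested. Among the 10 genes depth limits Id2 most, at 55 to 185 reads. Among the 23 further named genes it limits Smad9 and Hey2 most, at 22 to 124 and 22 to 86 reads.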
